A study of Homo sapiens with 6 samples.

Results

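RNA polymerases I, II and III are the enzymes that copy nuclear DNA into RNA, and the genes for 30 of their subunits were followed in the RNA-SEQ libraries of NALM6 cells, a human line of B cell precursor acute lymphoblastic leukemia. The 30 genes were taken from a list of subunit names, not from their measured values, and matched by symbol or alias to 1 Ensembl identifier each among the 57905 genes counted. The list itself was chosen with earlier results of these data known. Of these subunits, 6 belong to RNA polymerase I only, 7 to RNA polymerase II only and 10 to RNA polymerase III only, whereas 7 are shared. The cells were cultured for 24 h with the solvent DMSO (3 libraries) or with THZ1, a covalent inhibitor of the kinase CDK7, at 500 nM (3 libraries). All libraries came from a single cell line, and the labels do not say whether they were separate cultures, so that p-values measure only the spread between these libraries.

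RNA polymerase I makes the precursor of the large ribosomal RNAs, RNA polymerase II makes messenger RNAs and many small nuclear RNAs, and RNA polymerase III makes transfer RNAs, the 5S ribosomal RNA and other short RNAs. Each enzyme has a catalytic core formed by its largest and its second largest subunit, a stalk that protrudes from the core, and small subunits common to all of them. CDK7 belongs to the general transcription factor TFIIH and phosphorylates the carboxyl terminal domain of POLR2A, the largest subunit of RNA polymerase II.

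The DMSO libraries held 11015480 to 11164840 counts on genes and the THZ1 libraries 7876402 to 8314306. All 10 B cell precursor markers examined had at least 10 counts in every library, while the 4 T cell markers found together reached at most 0.889 CPM, the counts of a gene scaled to a common library size. The summed B cell precursor markers were at 3953 to 4071 CPM with DMSO and 1524 to 1602 CPM with THZ1, and the part of this difference in the results below was not tested. The 5 myeloid markers summed to 13.6 to 15.9 CPM with DMSO and 17.1 to 19.2 CPM with THZ1, and the 4 erythroid markers, 1 of them at 0 throughout, to at most 0.269 and 3.49 CPM.

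All 30 subunit genes passed the filter on low counts, and 25 were called by edgeR's quasi-likelihood test at an adjusted p-value below 0.05 (Benjamini-Hochberg adjustment over 16622 genes tested). THZ1-treated cells had lower levels of 18 subunits (60.0%) and higher levels of 7 (23.3%), where 41.1% and 43.5% of all genes tested were lower and higher. The share called in either direction, 83.3%, lay near the 84.5% of all genes. The median log2 fold change (log2FC, THZ1 over DMSO) over the 30 genes was −0.54, against 0.03 over all genes tested. By enzyme, the median was −1.31 for RNA polymerase III, −0.81 for RNA polymerase I, −0.02 for RNA polymerase II and −0.02 for the shared subunits. The sign of the latter 2 medians turned with the scaling between libraries, from −0.27 to 0.17 for RNA polymerase II and from −0.26 to 0.18 for the shared subunits. Among the 10 subunits of RNA polymerase III, 8 were lower and 1 higher. Among the 6 of RNA polymerase I, 5 were lower and 1 higher. RNA polymerase II was evenly split, with 3 lower and 3 higher, and the shared subunits gave 2 of each. Past a log2FC of 1.5 in either direction, 5 subunits were lower, all of RNA polymerase III, and 1 was higher, POLR2A, whereas 12.9% of all genes were lower and 24.6% higher by this measure. POLR3GL (−1.51) lay just inside this limit and POLR1A (−1.49) and POLR2H (−1.48) just outside. Over the alternatives, 3 to 8 subunits were lower past it, of which 3 to 5 belonged to RNA polymerase III. With library sizes alone these included POLR1A (−1.74), POLR1B (−1.68) and POLR2H (−1.73), and without DMSO replicate 3 POLR1A passed and POLR3GL and POLR3K did not. These values are relative to the other RNA in each library. The subunits had a median of 52.5 CPM with DMSO, against 17.1 CPM for all genes tested. The latter include genes near 0 with DMSO that are high with THZ1. The contrasts with all genes in this paragraph were thus not between genes of like level. In bulk libraries, fewer cells with a transcript and less of it in each cell cannot be told apart.

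**Figure D1:**
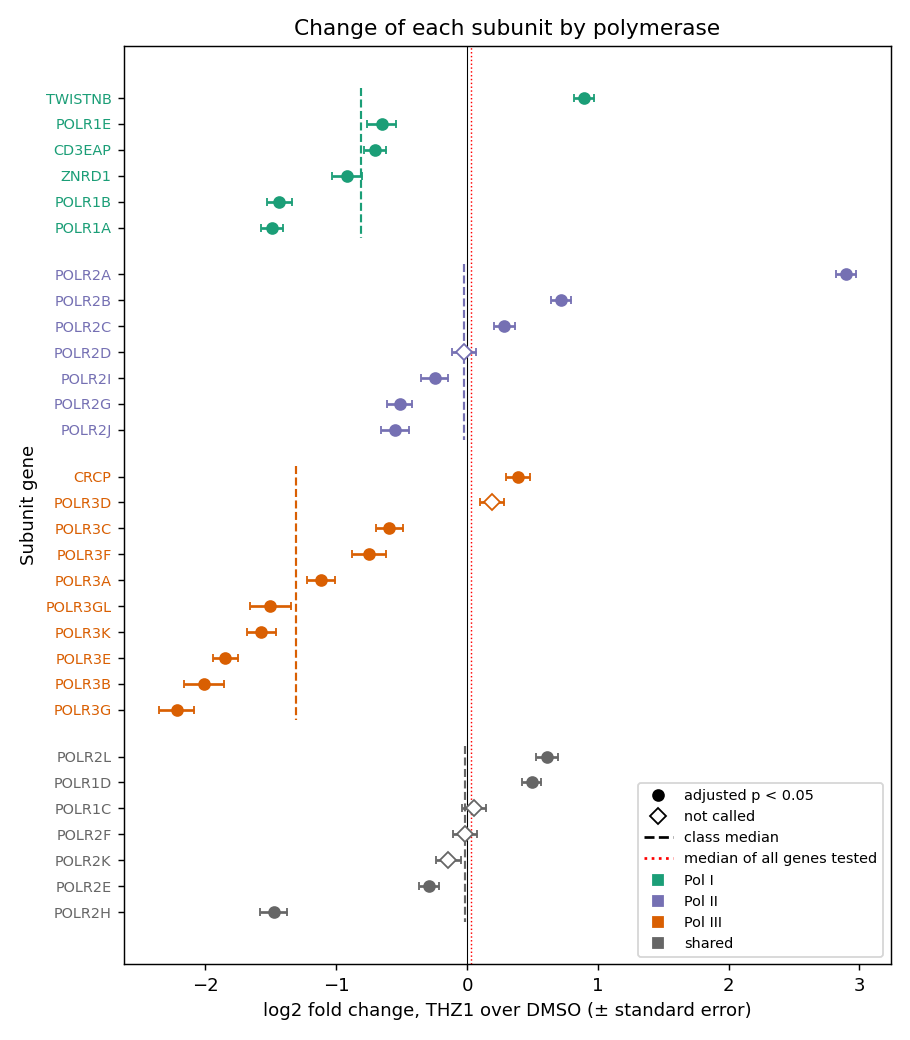
The log2FC of each subunit gene with THZ1 over DMSO is plotted with its SE, with genes grouped by enzyme, open diamonds for genes not called and dashed lines for the median of each group. The points of RNA polymerase III reach from −2.22 to 0.39, and POLR2A at 2.90 stands to the right of all others.

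POLR2A, whose repeated carboxyl terminal tail is the substrate of CDK7, was measured at 356, 356 and 319 CPM in the DMSO libraries and at 2720.3, 2407 and 2554 CPM in the THZ1 libraries (TMM-scaled CPM, as in all following values). The lowest THZ1 library thus lay far above the highest DMSO library. The level rose 7.44-fold (log2FC 2.90, SE 0.08), with an adjusted p-value of 2.2e-25 by edgeR's quasi-likelihood test. POLR2A ranked 2460 from the top among the log2FC values of the 16622 genes. Genes near 0 with DMSO can rank high in this order, such as LRRC73 (0.14 CPM with DMSO, rank 551). The mean of POLR2A with DMSO was 344 CPM. POLR2A lies on chromosome 17 from 7387685 to 7417933 on GRCh37, the build of the deposited counts, and in GENCODE 44 no other gene in the count table overlaps it. Its share of all counts on the 30 subunit genes was 15.3% ± 1.09 with DMSO and 60.7% ± 1.41 with THZ1 (SD, n = 3 libraries each). Without POLR2A, the summed level of the other 29 genes was 1911 ± 44.8 CPM with DMSO and 1654 ± 43.7 CPM with THZ1.

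POLR2B, the second largest subunit of RNA polymerase II and the partner of POLR2A in the catalytic core, was at 184, 192 and 160 CPM with DMSO and at 318, 281 and 282 CPM with THZ1. It rose in all THZ1 libraries, but by only 0.72 on the log2 scale (SE 0.07, adjusted p = 2.2e-10 by edgeR). Reads on POLR2A were 1.86 to 2.001 times as many as reads on POLR2B in the DMSO libraries and 8.55 to 9.06 times as many in the THZ1 libraries. The log2 ratio of these genes within a library, which does not depend on the scaling between libraries, was 0.95 ± 0.05 with DMSO and 3.12 ± 0.05 with THZ1 (SD, n = 3 each). The groups did not overlap (exact permutation test, two-sided, p = 0.1), and 3 against 3 libraries allow no smaller p.

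The other subunits particular to RNA polymerase II moved less. POLR2C and POLR2J form the pair on which the core is assembled. POLR2C was at 60.1 to 62.6 CPM with DMSO and 70.05 to 80.3 CPM with THZ1, and it rose by 0.29 on the log2 scale (adjusted p = 0.00183 by edgeR). DOK4, which overlaps POLR2C over 88 exonic bases on the opposite strand, rose by 3.02. POLR2J had the lowest log2FC of the subunits particular to the enzyme. It was at 43.2, 43.4 and 57.6 CPM with DMSO and 35.1, 31.3 and 31.7 CPM with THZ1 (log2FC −0.55, SE 0.11, adjusted p = 2.3e-05 by edgeR). POLR2J has near-identical copies in the genome, and how reads that match several copies were counted is not known. Of these copies, POLR2J4 fell by 1.88 on the log2 scale at only 5.48 CPM with DMSO, while POLR2J3 rose by 0.33. POLR2D and POLR2G form the stalk. POLR2G fell by 0.52 (adjusted p = 6.8e-06 by edgeR), whereas POLR2D was at 50.2, 59.9 and 48.7 CPM with DMSO and 51.8, 51.1 and 53.6 CPM with THZ1, and its groups overlapped (log2FC −0.02, SE 0.09). POLR2I, which takes part in RNA cleavage and proofreading, was at 42.4 to 57.9 CPM with DMSO and 37.7 to 43.6 CPM with THZ1. Its log2FC of −0.25 passed the test (adjusted p = 0.0276 by edgeR), although its groups overlapped, and without DMSO replicate 3 the adjusted p-value of POLR2I was 0.160 and without THZ1 replicate 1 it was 0.138.

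POLR3G had the lowest log2FC of the 30 subunits. It was at 32.0, 37.5 and 34.0 CPM with DMSO and at 7.23, 8.44 and 6.55 CPM with THZ1 (log2FC −2.22, SE 0.14, adjusted p = 6.7e-16 by edgeR). POLR3GL encodes the alternative form of the same subunit, and an enzyme holds either POLR3G or POLR3GL. It was at 19.3, 20.4 and 23.8 CPM with DMSO and at 6.18, 9.27 and 6.95 CPM with THZ1 (log2FC −1.51, SE 0.16). Both forms fell without overlap of the groups. The log2 ratio of POLR3G to POLR3GL reads was 0.73, 0.88 and 0.52 in the DMSO libraries and 0.23, −0.14 and −0.09 in the THZ1 libraries. POLR3G thus had more reads than POLR3GL in every DMSO library, and about as many with THZ1. Reads are not levels per length, and the exons of POLR3G cover 4024 bases against 1814 for POLR3GL. In the deposited log2 FPKM, POLR3G was the lower form, at 4.65 ± 0.11 against 5.06 ± 0.13 with DMSO. With THZ1, POLR3G was at 2.15 ± 0.16 and POLR3GL at 3.40 ± 0.32. The mean log2 ratio of reads was 0.71 ± 0.18 with DMSO and 0.00190 ± 0.20 with THZ1 (SD, n = 3 each), and the difference reached the smallest p possible, 0.1, by the two-sided exact permutation test. Adjusted over the 2 ratios tested, this p remained 0.1.

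**Figure D2:**
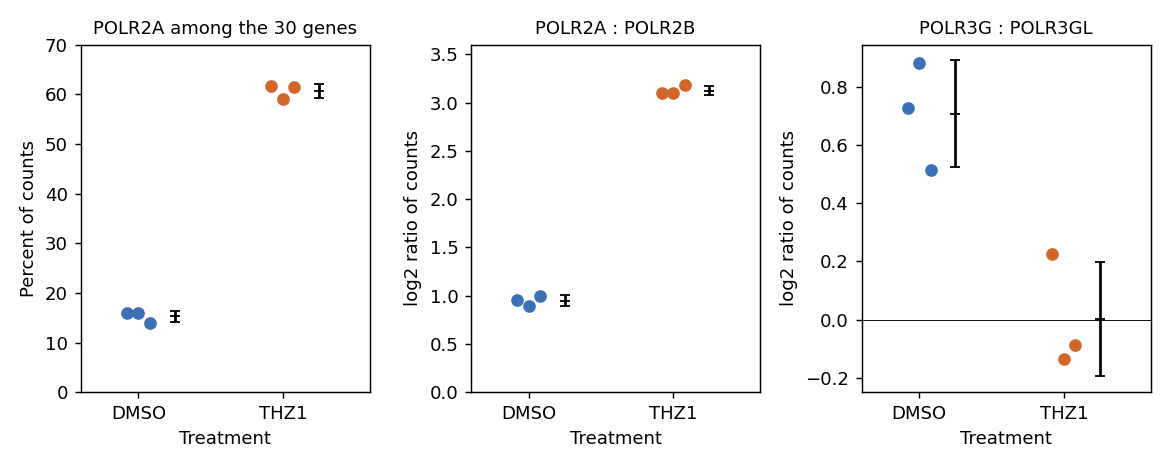
The panels show, for each library, the percent of the counts on the 30 subunit genes that fell on POLR2A, the log2 ratio of POLR2A to POLR2B counts and the log2 ratio of POLR3G to POLR3GL counts, with black bars for the mean ± SD of 3 libraries. POLR2A rises from 15.3% to 60.7% of these counts, and the mean POLR3G to POLR3GL ratio falls from 0.71 to near 0 on the log2 scale.

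POLR3G and POLR3GL join POLR3C and POLR3F in a subcomplex that resembles the initiation factor TFIIE. POLR3C fell by 0.59 and POLR3F by 0.75 on the log2 scale. A further pair, POLR3D and POLR3E, resembles TFIIF and acts in initiation and termination, and its members parted. POLR3E was at 88.1, 91.7 and 81.3 CPM with DMSO and at 21.96, 22.6 and 27.9 CPM with THZ1 (log2FC −1.85, SE 0.10, adjusted p = 1.9e-17 by edgeR). POLR3D was at 45.9, 47.0 and 45.8 CPM with DMSO and at 48.9, 60.8 and 49.1 CPM with THZ1. All THZ1 libraries were above all DMSO libraries for POLR3D, but the log2FC of 0.19 did not pass the test (adjusted p = 0.0545 by edgeR), and over the alternatives it ranged from −0.05 to 0.39. POLR3D was called higher without THZ1 replicate 1 (adjusted p = 0.0386) and without THZ1 replicate 3 (adjusted p = 0.0473 by edgeR), and also with DESeq2 (adjusted p = 0.0230) and with RLE or upper quartile factors or the filter of 10 counts in each library (edgeR adjusted p = 0.0106, 0.00033 and 0.00263). POLR3K, the subunit for RNA cleavage and termination, fell from 57.3 ± 8.94 CPM to 19.2 ± 1.21 CPM. CRCP, the stalk subunit first named as a component of a peptide hormone receptor, was the only subunit particular to RNA polymerase III called higher. It was at 35.0, 36.0 and 37.8 CPM with DMSO and at 47.5, 48.6 and 46.3 CPM with THZ1, and it rose by 0.39 (SE 0.09, adjusted p = 0.000241 by edgeR).

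In RNA polymerase I, POLR1A, the largest subunit, was at 152, 159 and 132 CPM with DMSO and at 53.3, 50.9 and 53.6 CPM with THZ1. It had the lowest log2FC of this enzyme, −1.49 (SE 0.08, adjusted p = 6.1e-17 by edgeR). POLR1B, the second largest subunit, followed closely with −1.44 (SE 0.09), falling from 78.3 ± 1.23 CPM to 28.9 ± 3.74 CPM. The pair POLR1E and CD3EAP (also POLR1G), which resembles TFIIF, fell by 0.65 and 0.70, and ZNRD1 (also POLR1H), the subunit for RNA cleavage, fell by 0.92. CD3EAP overlaps ERCC1 over 1593 exonic bases and ZNRD1 overlaps the antisense pseudogene POLR1HASP over 900 bases, each on the opposite strand. ERCC1 and POLR1HASP also fell, by 0.62 and 0.90 on the log2 scale. The strand setting of the counting is not given in the sources used here, so how reads in such overlaps were counted is not known. TWISTNB (also POLR1F), in the stalk, was the only subunit particular to RNA polymerase I that rose. It was at 61.4, 64.4 and 58.8 CPM with DMSO and at 117, 118 and 108 CPM with THZ1 (log2FC 0.89, SE 0.08, adjusted p = 3.8e-12 by edgeR).

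**Figure D3:**
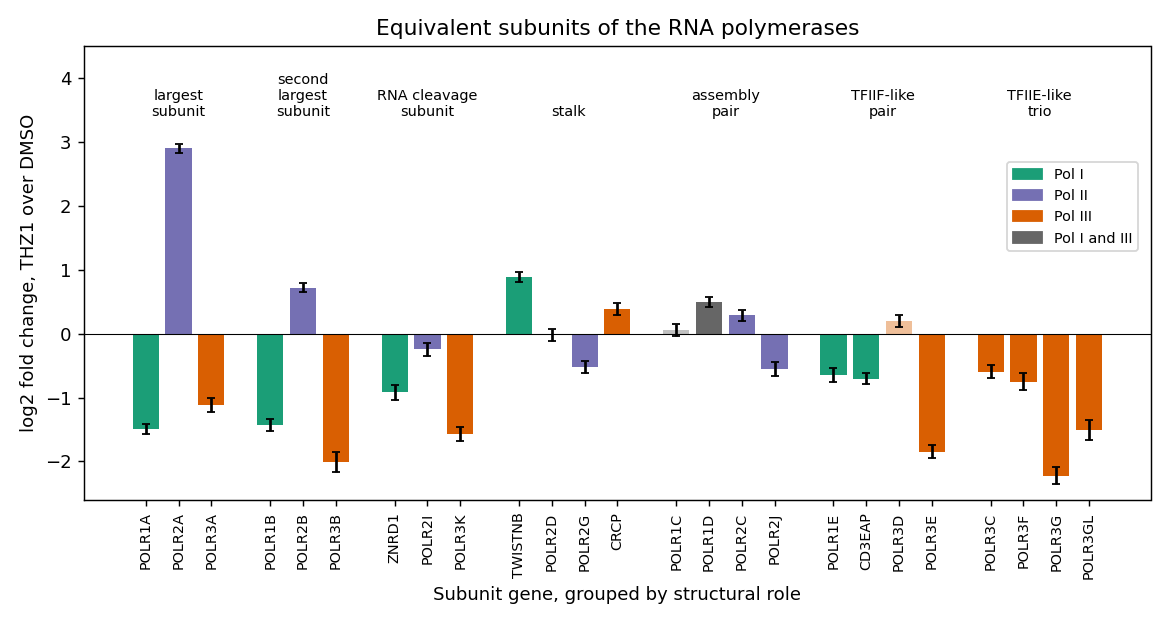
Bars give the log2FC with THZ1 over DMSO, with its SE, of subunits placed side by side by their structural role, coloured by enzyme and paler where not called. In the catalytic core, the bars of RNA polymerases I and III point down, from −1.12 for POLR3A to −2.01 for POLR3B, and those of POLR2A and POLR2B point up.

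Set side by side by role, the catalytic subunits of the enzymes differed in direction. The largest subunits POLR1A and POLR3A fell by 1.49 and 1.12, and POLR2A rose by 2.90. The second largest subunits POLR1B and POLR3B fell by 1.44 and 2.01, and POLR2B rose by 0.72. All of these calls held under the 16 alternative analyses, or under the 13 on counts for POLR1B, which has no deposited FPKM value. The subunits for RNA cleavage, ZNRD1, POLR2I and POLR3K, were all lower, but the call of POLR2I was lost under 6 alternatives, among them DESeq2 (adjusted p = 0.177) and upper quartile factors (edgeR adjusted p = 0.625). The stalk was mixed in this comparison, since TWISTNB and CRCP rose, POLR2G fell and POLR2D was not called.

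The subunits shared between enzymes showed no common direction. POLR1C and POLR1D, which in RNA polymerases I and III take the place that POLR2C and POLR2J have in RNA polymerase II, were at 44.4 ± 2.93 and 112 ± 7.33 CPM with DMSO. POLR1D rose to 158 ± 9.44 CPM (log2FC 0.49, edgeR adjusted p = 3.4e-07). POLR1C was at 42.2, 43.3 and 47.8 CPM with DMSO and 49.2, 41.5 and 47.3 CPM with THZ1, and its groups overlapped (log2FC 0.05). On the opposite strand, POLR1C overlaps ENSG00000271754 over 392 exonic bases, XPO5 over 348, LRRC73 over 140 and YIPF3 over 129. Of these, XPO5 fell by 1.22, ENSG00000271754 and LRRC73 rose by 0.28 and 6.34, and YIPF3 (−0.02) was not called. Opposite-strand overlaps of 260 exonic bases join POLR2B to IGFBP7 (log2FC −0.03), POLR2F to SOX10 (4.68) and POLR3G to MBLAC2 (−0.44). POLR3F overlaps DZANK1 over 404 exonic bases (−1.49) and POLR2I overlaps TBCB over 217 (0.03). Further overlaps are not listed here. Among the subunits common to all enzymes, POLR2H was at 66.2, 66.1 and 77.9 CPM with DMSO and at 27.0, 26.7 and 21.7 CPM with THZ1. Its log2FC of −1.48 (SE 0.10, adjusted p = 1.4e-14 by edgeR) was the lowest of the shared subunits. POLR2L was the highest, at 64.7, 64.9 and 83.1 CPM with DMSO and at 105, 107 and 113 CPM with THZ1 (log2FC 0.61, SE 0.09, adjusted p = 1.3e-07 by edgeR). POLR2L overlaps CD151 on the opposite strand over 257 exonic bases, and CD151 rose by 2.24 on the log2 scale, but the part of reads in this overlap was not tested. POLR2E fell by 0.29 (adjusted p = 0.00059 by edgeR). POLR2F was at 65.4, 62.6 and 77.3 CPM with DMSO and 71.8, 68.9 and 62.3 CPM with THZ1 (log2FC −0.02), and POLR2K at 40.6, 42.6 and 50.5 CPM with DMSO and 38.9, 40.6 and 41.6 CPM with THZ1 (log2FC −0.14). Both overlapped between treatments and were not called.

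**Figure D4:**
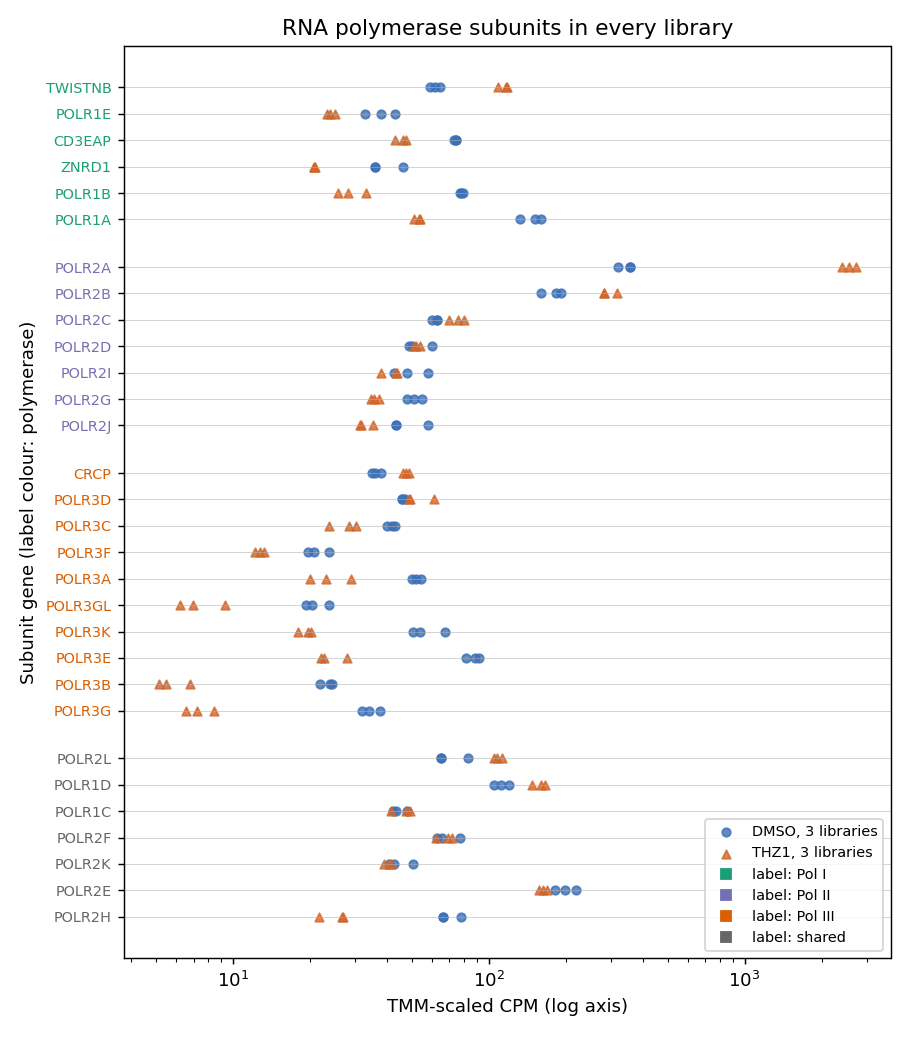
Each symbol is the TMM-scaled CPM of a subunit gene in a single library, on a log axis, with circles for the 3 DMSO libraries and triangles for the 3 THZ1 libraries. The treatments are fully separated in 25 of the 30 genes, and POLR2A lies between 319 and 356 CPM with DMSO and between 2407 and 2720.3 CPM with THZ1.

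DMSO and THZ1 libraries were fully separated in 25 subunit genes (83.3%), as they were in 84.7% of all genes tested. The genes that overlapped were POLR1C, POLR2D, POLR2F, POLR2I and POLR2K. When single libraries were left out, the log2FC ran from 2.83 to 2.93 for POLR2A, from −2.33 to −2.15 for POLR3G and from −1.59 to −1.45 for POLR1A. For separated genes with smaller changes it ran from −0.38 to −0.24 for POLR2E and from 0.07 to 0.24 for POLR3D.

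Levels of different genes were compared in the deposited FPKM values, which are per length of transcript and on a log2 scale, for the 28 subunits that have one. In these values the libraries of a treatment share nearly the same distribution, so their SD may not be the plain spread between replicates. With DMSO, POLR2L had the highest level (7.52 ± 0.16, SD, n = 3 libraries), followed by POLR2I (6.95 ± 0.16), POLR2A (6.89 ± 0.15) and POLR2E (6.87 ± 0.07), of which the latter 3 did not differ beyond their spread. POLR3B had the lowest level (3.92 ± 0.06). With THZ1, POLR2A came first (9.57 ± 0.09), above POLR2L (7.85 ± 0.06), and POLR3B remained the lowest (1.61 ± 0.17). The spread between subunit levels was wider with THZ1 for RNA polymerases I and III, and for RNA polymerase II only with POLR2A included. The SD between the subunits particular to RNA polymerase III was 0.35 with DMSO and 1.16 with THZ1 (9 genes), that of RNA polymerase I 0.38 and 1.11 (5 genes), and that of RNA polymerase II 0.76 and 1.54 (7 genes). Without POLR2A, the SD of RNA polymerase II was 0.77 and 0.78 (6 genes). The shared subunits had an SD of 1.14 and 1.26 (7 genes). These SDs are between genes of the same libraries, were not tested and were not set beside an SD over all genes.

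**Figure D5:**
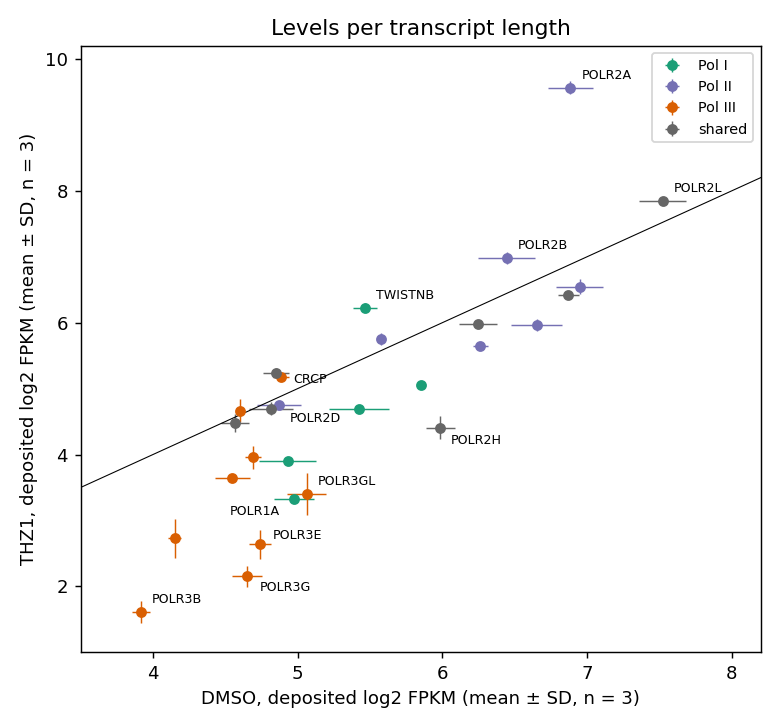
The mean deposited log2 FPKM of 28 subunits with THZ1 is plotted against that with DMSO, with bars for the SD of 3 libraries, colours for the enzyme and a line where both are equal. POLR2A (6.89 and 9.57) lies above the line, and the subunits of RNA polymerase III reach down to 1.61 for POLR3B.

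The promoters of 4 subunits are shown because POLR2A and POLR2B rose while POLR3B and POLR3E fell. They were taken from RefSeq on GRCh38.p14 and run from 250 bases before to 50 bases after the start of the gene. Capitals mark, on either strand, the E-box (CACGTG), the GC box (GGGCGG), the ETS core (CCGGAA), the TATA box (TATAAA) and the letters GGTTCGA, the start of the B box found inside transfer RNA genes. The B box was added after the sequence of POLR3E was seen.
POLR2A (chr17:7484116-7484415, plus strand): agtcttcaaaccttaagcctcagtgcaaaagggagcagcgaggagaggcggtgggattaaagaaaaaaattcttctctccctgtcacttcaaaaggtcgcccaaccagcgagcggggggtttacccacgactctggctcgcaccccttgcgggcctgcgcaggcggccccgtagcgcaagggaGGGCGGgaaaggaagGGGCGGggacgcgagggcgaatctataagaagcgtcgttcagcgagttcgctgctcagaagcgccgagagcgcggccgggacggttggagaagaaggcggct
POLR2B (chr4:56978646-56978945, plus strand): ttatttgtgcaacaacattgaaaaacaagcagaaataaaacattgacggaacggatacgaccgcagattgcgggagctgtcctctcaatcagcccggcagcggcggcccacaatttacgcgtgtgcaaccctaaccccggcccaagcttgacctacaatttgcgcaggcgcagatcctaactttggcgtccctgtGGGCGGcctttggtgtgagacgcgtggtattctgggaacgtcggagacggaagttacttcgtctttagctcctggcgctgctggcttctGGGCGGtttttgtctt
POLR3B (chr12:106357498-106357797, plus strand): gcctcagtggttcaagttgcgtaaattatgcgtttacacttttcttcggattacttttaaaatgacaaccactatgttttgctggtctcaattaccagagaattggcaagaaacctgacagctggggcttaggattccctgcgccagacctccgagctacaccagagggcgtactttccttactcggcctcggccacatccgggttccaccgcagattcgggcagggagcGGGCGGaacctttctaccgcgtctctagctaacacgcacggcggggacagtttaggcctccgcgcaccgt
POLR3E (chr16:22297159-22297458, plus strand): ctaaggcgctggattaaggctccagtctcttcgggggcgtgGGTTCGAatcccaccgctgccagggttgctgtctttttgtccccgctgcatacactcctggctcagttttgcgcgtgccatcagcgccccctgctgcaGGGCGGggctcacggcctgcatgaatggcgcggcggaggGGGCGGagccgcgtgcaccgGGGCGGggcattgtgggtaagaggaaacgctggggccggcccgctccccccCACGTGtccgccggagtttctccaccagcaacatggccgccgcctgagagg

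POLR2A and POLR2B each held 2 GC boxes, and POLR3B held 1. POLR3E held 3 GC boxes, 1 E-box and 1 B box. RefSeq gave a promoter for 22 of the 30 genes. Of these 22, 14 held a GC box (63.6%, against 45.0% of 35116 promoters of the same length), 10 held an ETS core (45.5% against 17.2%), 4 held an E-box (18.2% against 7.26%), 0 held a TATA box (11.5% of all) and 1, POLR3E, the B box letters (0.860% of all). The genes with an E-box were CD3EAP, POLR3A, POLR3C and POLR3E, which were among the 13 lower genes with a promoter, while the 6 higher genes had 0. Of the ETS cores, 5 were in lower genes, 2 in higher genes and 3 in genes that were not called. Motif shares among all lower and all higher genes were not examined, so no link with direction can be read from these splits. The median GC content was 60.7% for the subunits and 58.7% for all promoters. These matches describe the letters in these windows only. The 35116 promoters were not limited to the 16622 genes tested, so the shares do not compare the subunits with other expressed genes.

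The subunit genes spanned 1505 to 152451 bases of the genome, from POLR2I to POLR3B. Across the 30 genes, the Spearman rho between span and log2FC was −0.07, and across 16092 genes tested and annotated it was −0.39. With the mean CPM in DMSO libraries, rho was 0.32 for the subunits and −0.51 for all 16622 genes. The DMSO mean is itself part of the log2FC, and the filter keeps genes near 0 with DMSO that are high with THZ1. LRRC73, for example, was at 0.14 CPM with DMSO and 12.3 CPM with THZ1, whereas the lowest subunit was at 21.2 CPM with DMSO. The rho values of 0.32 and −0.51 are therefore not comparable. The genes share the same libraries and are not independent, so these values are descriptions.

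Genes that act with the polymerases were examined as lists, and called genes made up 80.0%, 93.8% and 93.5% of those tested, beside 84.5% of all genes (41.1% lower and 43.5% higher). All genes were again not matched to the lists in level. Of 15 factors of RNA polymerase I that were tested, 7 were lower and 5 higher, with a median log2FC of −0.19. TCOF1 and TBP were lowest (−1.67 and −1.14), and BAZ2A and SIRT7, both known as regulators of ribosomal DNA chromatin, highest (1.77 and 1.69). Among the factors that bring RNA polymerase I to the ribosomal genes, RRN3 and UBTF rose by 0.96 and 0.65, TAF1A and TAF1D fell by 0.97 and 0.36, as TBP did, and TAF1B (−0.19) and TAF1C (0.15) were not called. Apart from TBP, these were named after their values were seen. Of 16 factors of RNA polymerase III, 9 were lower and 6 higher (median −0.31). GTF3C5 and GTF3C2, subunits of the initiation factor TFIIIC, were lowest (108 to 38.4 CPM and 107 to 39.9 CPM), and BRF2 and SNAPC2, which serve the small nuclear RNA type of promoter, were highest (14.5 to 40.9 CPM and 20.7 to 56.1 CPM). Of 31 genes for assembly, nuclear import and related partners of the polymerases, 21 were lower and 8 higher (median −0.78). TTI1, a cofactor of a chaperone of large kinases, and POLR2J4 were lowest (−2.05 and −1.88). GPN2, a GTPase for polymerase assembly, and ARMC5, an adaptor for the degradation of POLR2A, were highest, with GPN2 at 44.6 CPM with DMSO and 316 CPM with THZ1 (log2FC 2.82) and ARMC5 at 20.5 and 118 CPM (2.52).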

How the data were processed

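Raw counts per gene were deposited by the authors, who filtered the reads, mapped them to GRCh37 with STAR and counted them with htseq-count. The annotation and strand setting are not given in the sources used here. A second deposited table holds FPKM for 16730 genes on a log2 scale, read as log2(FPKM + 1), and its 3 libraries of a treatment share nearly the same distribution of values, by a step not given in the sources used here. The authors' own fold changes, p-values and FDR in it were not used.

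Genes were filtered with filterByExpr of edgeR (minimum count 10, minimum total 15), which left 16622. TMM factors scaled the libraries, the quasi-likelihood test of edgeR compared the treatments, and p-values were adjusted by Benjamini-Hochberg over all genes tested, with calls at 0.05. The SE is the size of the log2 fold change over the square root of its F statistic. Replicate libraries differed by more than sampling noise (chi-square per gene 1.81 to 9.35). Coordinates came from GENCODE 44 on GRCh37.

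Values in every library were given for the highest and lowest subunit of each enzyme, those not called, and POLR2A, POLR2B, POLR3G and POLR3GL, and of each list the 2 highest and 2 lowest called genes were named. POLR2J3, RRN3, UBTF, TAF1A, TAF1B, TAF1C, TAF1D and overlapping partners fall outside this rule, and 1 gene of the RNA polymerase III list is not reported here. Members and lists were chosen with earlier results of these data known. Alternatives were other scalings, DESeq2, other filters, a replicate block, each library left out, and limma on FPKM (pseudocount 1 or 0.1). Those of the 2 ratios were added after seeing the data. Fits were tested on simulated data in which few genes changed, equally up and down. This does not test the scaling for data such as these, where most genes were called. R 4.3.3, edgeR 4.0.16, limma 3.58.1, DESeq2 1.42.0, Python 3.11.15 and scipy 1.17.1 were used.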

Additional observations from a re-analysis of the deposited data

How the results depend on the processing

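Of the 30 subunits, 19 kept their direction and their side of the threshold under all 16 alternatives, and POLR1B and POLR3K did so under the 13 on counts, since they have no deposited FPKM value. The fits on FPKM used values that share nearly the same distribution within a treatment, which may alter their spread and p-values. Subunits called higher and lower numbered 5 and 21 with library sizes alone and 9 and 16 with upper quartile factors. The count of higher subunits was 7 to 8 and that of lower subunits 17 to 18 with a library left out. The correlation of deviations was −0.00400 to 0.0206 between DMSO and THZ1 libraries with the same number in their titles. Between those with different numbers it was −0.0178 to 0.0170. These values showed no pairing by number, but the labels do not say how the libraries were set up. With the replicate block 7 subunits were higher and 18 lower, as without it. No call changed with the block. Against TMM, all genes shifted by a median log2 of 0.19 (upper quartile factors) and −0.25 (library sizes alone). With RLE factors or DESeq2 the median of RNA polymerase III was −1.24, and with no filter it was −1.40. With upper quartile factors the medians of RNA polymerases I, II, III and the shared subunits were −0.62, 0.17, −1.12 and 0.18, with library sizes alone −1.06, −0.27, −1.56 and −0.26, and with the filter of 10 counts in each library −0.68, 0.11, −1.18 and 0.12. In the deposited log2(FPKM + 1) values, at any mean or at a mean of at least 1, RNA polymerase II was at −0.12 and III at −1.42, and with a pseudocount of 0.1 at −0.13 and −1.56. With a library left out, the median of RNA polymerase III was −1.36 to −1.24.

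The log2 fold changes that changed sign were all of genes not called in the report. POLR2D was at 0.047 with DESeq2 and RLE factors, 0.11 with the filter of 10 counts, 0.17 with upper quartile factors and −0.097 to 0.055 with a library left out. POLR2F was at 0.051 with DESeq2, 0.052 with RLE factors, 0.12 with the filter of 10 counts, 0.18 with upper quartile factors and −0.098 to 0.060 with a library left out. POLR1C was at −0.20 with library sizes alone, −0.087 and −0.091 in the FPKM values with pseudocounts of 1 and 0.1, −0.035 with no filter and −0.0055 to 0.11 with a library left out. POLR3D was at −0.055 with library sizes alone and POLR2K at 0.051 with upper quartile factors. The cause was not tested. Calls of CRCP and POLR2C were lost with library sizes alone, that of POLR2E with upper quartile factors, and that of POLR2I under 6 alternatives. Calls were gained, all lower, by POLR2D, POLR2F and POLR2K with library sizes alone (edgeR adjusted p = 0.0102, 0.00700 and 0.000498) and by POLR2K in the FPKM values and with no filter. Gained higher calls were those of POLR1C with upper quartile factors (edgeR adjusted p = 0.0167) and of POLR3D under 6 alternatives. The depth of 7876402 to 11164840 counts per library limits the precision of low genes, such as POLR3B with 39 to 49 counts per THZ1 library.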
